A study of Mus musculus with 12 samples.

Results

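ApoE, encoded by Apoe, is the apolipoprotein with which remnants of chylomicrons and VLDL bind to receptors on hepatocytes, and the liver makes most of what circulates. Mice without it keep these remnants in plasma, and they are the most widely used mouse model of atherosclerosis. Kupffer cells, the resident macrophages of the liver, and recruited monocytes also take up lipoprotein cholesterol and secrete inflammatory mediators. The comparison described here set the 2 liver arrays of ApoE null mice against the 2 of WT mice, chosen by the titles of the samples, which is 4 of the 12 arrays in the series and 4 of its 8 liver arrays.

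The study examined DSCR-1, the calcineurin inhibitor encoded by Rcan1, in mice with and without ApoE, and its arrays measured RNA from whole liver and from aortic endothelial cells on the Affymetrix Mouse Genome 430 2.0 platform. According to the labels, all liver donors were adult C57BL/6J mice on a high-fat diet (HFD) for 12 weeks, whereas the text of the study describes normal chow for the arrays, so the diet is not settled. WT mice carried no mutation. ApoE null mice lacked ApoE in every cell, as did double null mice, which also lacked DSCR-1. Dscr-1 null mice lacked DSCR-1 alone. According to the methods, WT mice came from a supplier and both null lines from earlier work, although the methods also mention littermates, so genotype and the source of the line cannot be told apart. A transgene at the Hprt locus also appears in the methods, and whether the donors of these arrays carried it is not stated. Sex was not given in the labels. Each group had 2 arrays, and nothing in the labels says that they came from separate mice, so the p-values below measure the spread between arrays, which may be technical.

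One ApoE null array stood apart. Over the kept probe sets, the mean correlation of ApoE null replicate 1 with the other 7 liver arrays was 0.835, against 0.873 to 0.883 for the others. Its hybridization control transcripts, which are added to every sample in a fixed amount, gave 2.68 times the median of the other arrays over 16 probe sets, against 0.865 to 1.13 times on the others. Its median signal was 44.7 against 32.2 to 37.6, and its highest signal 77614 against 35172 to 45609. The Actb 3′/5′ ratio, a sign of RNA integrity, was 6.83 and lay within the 3.15 to 7.84 of the others. It was uneven across the arrays compared, at 3.15 and 5.50 on WT replicates 1 and 2 and 4.01 on ApoE null replicate 2. Signals and list medians are therefore given for each array, always in the order replicate 1, replicate 2. Some dim genes share a range, and a difference or median with a single value is that of the groups. Where one pair is set against another without further words, WT comes first. Defining transcripts of hepatocytes were abundant on every liver array, with an Alb signal of 27527 and 36918 in WT and 64006 and 32854 in ApoE null mice, and a Ttr signal of 35172 and 41939.9 against 69694 and 38080.2.

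**Figure D1:**
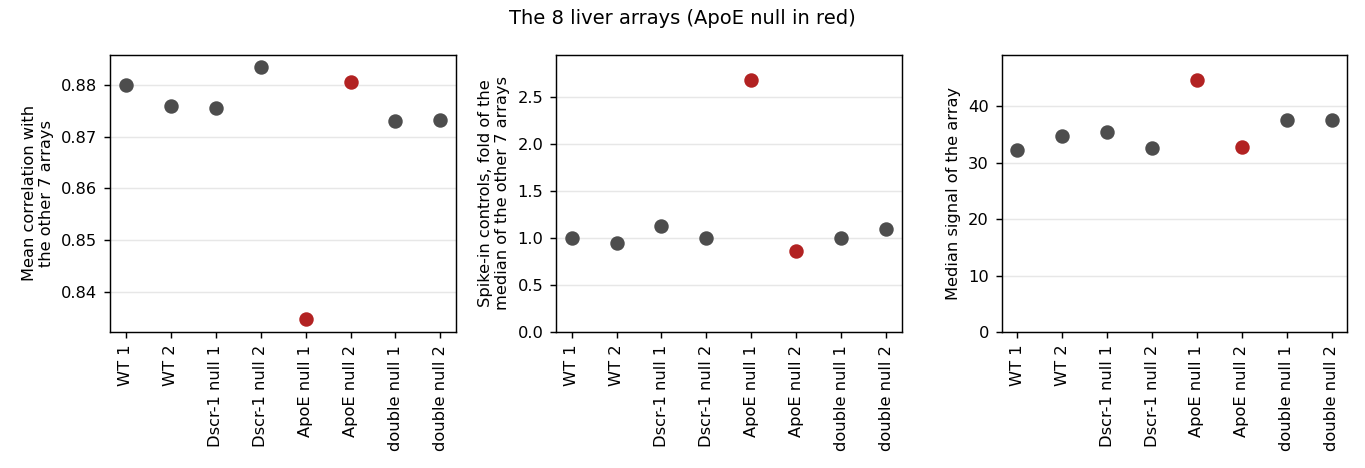
Quality of the 8 liver arrays, with the mean correlation with the other 7 arrays (left), the fold of the hybridization controls over the median of the others (middle) and the median signal (right, arbitrary units scaled by the authors). ApoE null replicate 1 is lowest in the first panel, at 0.835, and highest in the others, at 2.68 and 44.7.

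Apoe itself was examined first. Its signal was 20045 and 19963 on the WT arrays and 305 and 177 on the ApoE null arrays, so the group means differed 83.0-fold. The difference was -6.33 ± 0.38 (SE) on the log2(signal + 16) scale, on which all differences below are given. Its adjusted p was 0.00681 by limma, with the adjustment over 32005 kept probe sets. Dscr-1 null mice had 21510.3 and 19937 and double null mice 83.7 and 79.8. The labels for ApoE therefore matched the signal on all 8 arrays. The signal of Rcan1 was 210.0 and 134 in WT and 497 and 177 in ApoE null mice, and the groups overlapped.

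Of 14855 genes tested, limma called 2 at an adjusted p under 0.05, which is 0.0135%. Apoe was lower and Ang was higher. At an unadjusted p under 0.05 by limma there were 853 genes (5.74%), 520 higher and 333 lower. That share is near the one such a threshold passes with no difference at all. With 2 arrays per group, genes were also described by a rule without a test. The groups were parted when their nearest arrays lay at least 2-fold apart on this scale and both arrays of the brighter group were above their own median signal. By that rule 187 genes (1.26%) were higher and 105 (0.707%) were lower in ApoE null liver. Without ApoE null replicate 1, where the rule is easier to pass, the counts were 433 and 437. The ApoE null arrays both lay above both WT arrays for 2572 genes (17.3%) and both below for 2483 (16.7%). Most parted genes were dim. Of the 187 higher, 125 had a mean signal under 50 over the 8 liver arrays and 108 had both WT arrays under 16, and of the 105 lower, 80 had both ApoE null arrays under 16. Among the 6265 genes with a mean of at least 100, called bright here, 29 were parted higher (0.463%) and 8 lower (0.128%). With an intensity trend and robust moderation, limma called 40 genes, 27 higher and 13 lower.

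The shift of the genes also depended on brightness, and did so mainly on replicate 1. Genes with a mean signal from 1000 to 10000 (937 genes) had a median difference of -0.22 on ApoE null replicate 1 and -0.03 on replicate 2 from the WT mean. Genes under 50 (5728 genes) had 0.29 and 0.00, and genes of at least 10000 (75 genes) had 0.15 and -0.01. Bright genes as a class leaned lower, with 14.3% above and 20.6% below both WT arrays, and the lists below differ in how many of their members were bright.

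The second liver comparison, double null against Dscr-1 null, removes ApoE on another background and shares no array with the first. By the same rule it parted 171 genes higher (1.15%) and 90 lower (0.606%). Limma called 1 gene (0.00673%), Apoe, with 648 (4.36%) at an unadjusted p under 0.05. Genes parted higher without ApoE on both backgrounds numbered 8, which is 4.28% of the first list and 4.68% of the second. They were Saa3, Clec7a, Lgals3, Cfp, Lpl, Vcam1, Lyz1 and Lyz2, all of them bright. Lower on both were Apoe and Ppp5c, which is 1.90% and 2.22% of the lists. Cfp, Clec7a and Ppp5c were picked after their values were seen. The interaction of the null mutations is the test of a difference between the backgrounds. It gave 0 genes at an adjusted p under 0.05 by limma and 653 (4.40%) at an unadjusted p under 0.05.

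The promoter of Saa3 is shown because this gene had the widest gap among the 8 and its window holds a motif searched for. The window runs from 250 bases before to 50 after the RefSeq start (GRCm38.p6, chr7:46715627-46715926, minus strand), 5′ to 3′ on the strand of the gene. Capitals mark a match to GAAANNGAA, an interferon response type motif, which was searched on both strands.
Saa3: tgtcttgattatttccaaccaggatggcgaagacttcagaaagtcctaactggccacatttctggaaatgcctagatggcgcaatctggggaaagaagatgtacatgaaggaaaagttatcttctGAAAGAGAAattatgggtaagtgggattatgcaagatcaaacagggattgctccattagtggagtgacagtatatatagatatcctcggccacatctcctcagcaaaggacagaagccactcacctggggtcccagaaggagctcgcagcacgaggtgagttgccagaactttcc
The motif occurred in 9.76% of 27025 promoters of the same length, and of the 6 genes among the 8 with a promoter entry it was in Saa3 and Lyz1. A match describes the letters in this window only.

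Saa3 encodes a serum amyloid A that macrophages and other cells make during the acute phase response. Its signal was 131 and 203 in WT and 1443 and 1275 in ApoE null mice. Dscr-1 null mice had 147 and 408 and double null mice 1452 and 1397. The difference was 2.93 ± 0.50 on the first background and 2.45 on the second. All 4 arrays without ApoE lay above all 4 with it.

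Clec7a (Dectin-1), a receptor of myeloid cells for fungal beta-glucan, had a signal of 108 and 103 in WT and 557 and 376 in ApoE null mice. On the other background it had 155 and 139 in Dscr-1 null and 976 and 628 in double null mice. Lgals3 (galectin-3), a lectin of activated macrophages, had 133 and 139 in WT and 1044 and 388 in ApoE null mice, and replicate 1 was the higher of the pair. Differences were 1.96 ± 0.39 and 2.11 ± 0.55, and 2.30 and 3.52 on the Dscr-1 null background. For both genes the groups were apart on each background.

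Lpl, the enzyme that hydrolyses triglycerides of chylomicrons and VLDL and is low in adult hepatocytes, had a signal of 513 and 627 in WT and 1625 and 1953 in ApoE null mice. Here replicate 2 was the higher. With 918 and 798 in Dscr-1 null and 2572 and 2009 in double null mice, the differences were 1.62 ± 0.36 and 1.39. Vcam1, an adhesion molecule by which leukocytes bind endothelium, had 109 and 52.2 in WT and 368 and 276 in ApoE null mice. Cfp (properdin), which stabilizes the alternative pathway convertase of complement, had 40.9 and 61.4 against 319 and 185. Their differences were 1.86 ± 0.46 and 1.97 ± 0.50. A dimmer probe set of Vcam1 overlapped with a difference of -0.65, and the remaining one gave 1.45.

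The lysozyme genes Lyz1 and Lyz2, enzymes of macrophage granules, are near-identical copies, so their probe sets may share transcripts and they are uncertain as separate results. Lyz2 had 333 and 288 in WT and 902 and 689.6 in ApoE null mice, a difference of 1.31 ± 0.40. Lyz1 had 556 and 269 against 1871 and 1139.7, and it passed the rule by a gap of 1.02 between the nearest arrays. In the other direction, Ppp5c, a serine/threonine phosphatase, had 307 and 293 in WT and 49.1 and 101 in ApoE null mice, but its other probe sets gave differences of 0.68 and 0.02. None of these 9 genes passed the adjusted threshold of the main test. With a trend and robust moderation limma called them all, with adjusted p-values of 1.02e-08 for Saa3, 1.63e-05 for Lpl, 3.39e-05 for Clec7a and 0.00173 for Lgals3.

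**Figure D2:**
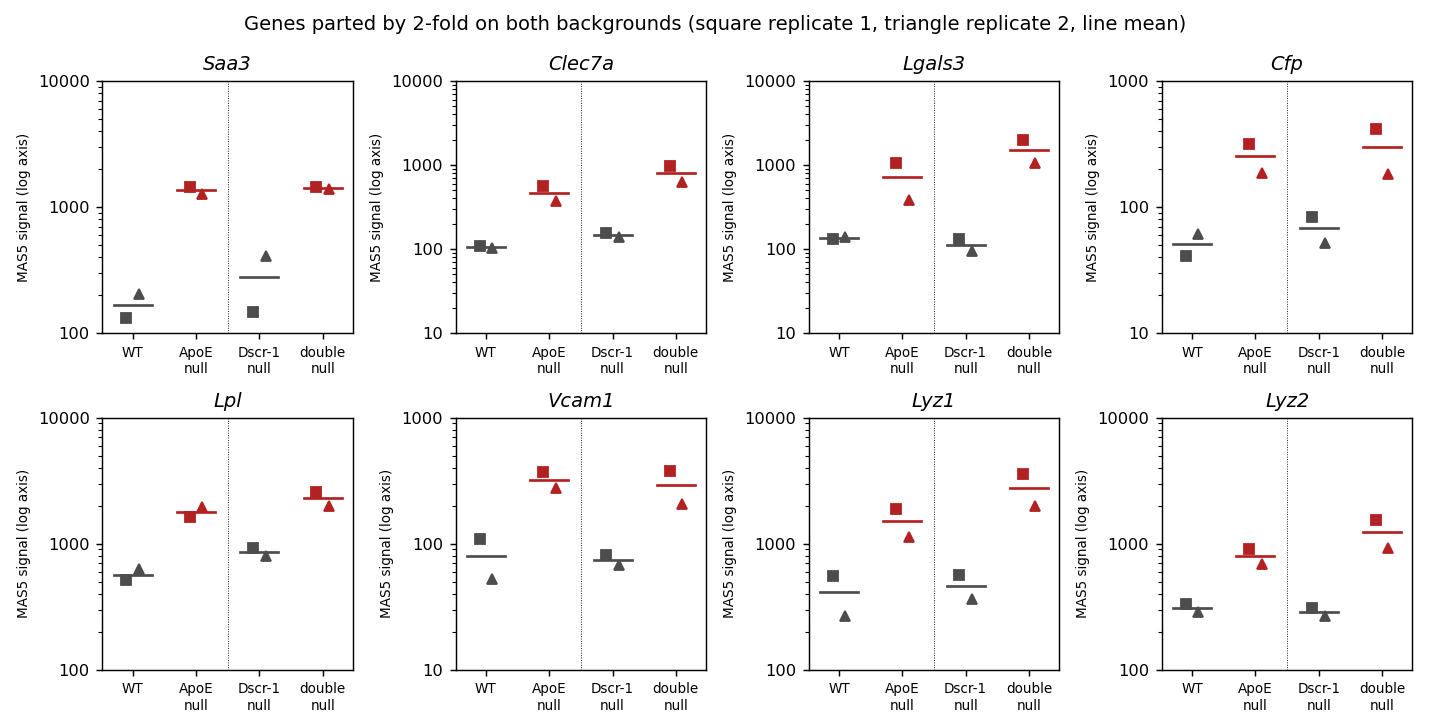
Signal per array (log axes) of the 8 genes parted higher without ApoE on both backgrounds. Each panel shows WT and ApoE null mice left of the dotted line and Dscr-1 null and double null mice right of it, with squares for replicate 1, triangles for replicate 2 and lines for group means. In every panel the arrays without ApoE (red) lie above those with it (grey).

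Ang, which encodes the secreted ribonuclease angiogenin, was the gene with the widest gap. Its signal was 82.7 and 93.3 in WT and 14582 and 20314 in ApoE null mice, a difference of 7.37 ± 0.50 with an adjusted p of 0.00871 by limma. Dscr-1 null mice, however, had 8449 and 22375 and double null mice 20982 and 22270.3, so WT stood apart from all other groups. The other Ang probe sets disagreed. One gave a difference of 3.26, and the brightest on the WT arrays gave 1067 and 816 in WT and 828 and 948 in ApoE null mice, a difference of -0.07. With the mean of the 3 probe sets the difference was 3.52, with an adjusted p of 0.308 by limma. Rnase4, the neighbour that shares its promoter region with Ang, had 12359 and 11506 in WT and 8526 and 8302 in ApoE null mice.

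Dscr-1 null mice have ApoE. Of the 15 genes with the widest gaps in the higher direction, all but Saa3 nevertheless had both Dscr-1 null arrays above both WT arrays. Rpgrip1, which photoreceptors use to anchor RPGR in the cilium, had 29.7 and 4.6 in WT, 308 and 385 in ApoE null and 263 and 448 in Dscr-1 null mice. A2ml1, a protease inhibitor related to alpha-2-macroglobulin, had 34.5 and 73.5 in WT, 522 and 1084 in ApoE null and 461 and 718 in Dscr-1 null mice. Fam25c had 87.3 and 222 in WT, 958 and 1913 in ApoE null and 1797 and 1545 in Dscr-1 null mice. For these 3 genes and for Ang, the WT arrays were the only low ones among the 8 liver arrays. Bcl7c, a subunit of the BAF chromatin remodelling complexes, and Ugt2b38, a UDP-glucuronosyltransferase, showed the same order, with 41 and 13.5 against 176 and 185 and 90.3 and 132 against 409 and 389.9 in WT and ApoE null mice. In Dscr-1 null mice they had 157 and 195 and 451 and 432. Dimmer probe sets of Rpgrip1 and Bcl7c did not follow, with differences of -0.16 for the former and -0.82 to 0.76 for the latter.

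Hprt, the purine salvage enzyme encoded on the X chromosome, had 46.9 and 54.8 in WT and 1019 and 933 in ApoE null mice. Dscr-1 null mice gave 819.7 and 65.9, so that these replicates differed from each other, and double null mice gave 884 and 913. Lcn2, a lipocalin that binds bacterial siderophores and rises in the acute phase response, had 6.5 and 53.8 in WT and 533 and 309 in ApoE null mice, and its WT arrays differed widely from each other. Dscr-1 null mice had 66.9 and 229 and double null mice 812 and 459, where the gap between the nearest arrays was 0.96 and missed the rule.

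The remaining genes of the higher list were dim in WT mice, and folds against such signals depend on the offset. They were Edn2, an endothelin, at 7.3 and 3 in WT and 86.8 and 82.2 in ApoE null mice, and Hoxb4, a homeobox factor, at 4.9 and 5.2 against 76.7 and 68.7. Dscr-1 null mice lay between, with 29.3 and 14 for Edn2 and 24.1 and 16.9 for Hoxb4. Fam222a, Calhm6, Zscan12, Sccpdh and Slc37a2 had WT signals from 1.7 to 6.5 and ApoE null signals from 53.3 to 83.1. Of these 5 genes, Zscan12 and Sccpdh had the opposite order on the Dscr-1 null background. Zscan12 also missed the rule with the mean of its probe sets.

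Among genes with lower signal, Ctse (cathepsin E), an aspartic protease, followed Apoe. It had 745 and 1070.1 in WT and 15.9 and 58.2 in ApoE null mice, a difference of -4.22 ± 0.49 with an adjusted p of 0.246 by limma. A dimmer probe set of Ctse overlapped, at 55.2 and 52.1 in WT and 121 and 46.7 in ApoE null mice, and the mean of both gave -1.90. Dscr-1 null mice had 86.6 and 53 and double null mice 68.4 and 56.3, so WT alone was high. Clec2d, a lectin bound by an inhibitory receptor of NK cells, had 458 and 567 in WT and 81.1 and 77.4 in ApoE null mice, with 202 and 112 in Dscr-1 null mice between them. Acnat2, a peroxisomal acyltransferase for fatty acids, had 234 and 197 against 10.3 and 19. Its difference was -2.93 on the WT background and -1.06 on the Dscr-1 null background, where the groups overlapped.

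The next genes were dim on the ApoE null arrays. Rnase2a, an eosinophil-associated ribonuclease, had 100.1 and 148 in WT and 12.3 and 4.2 in ApoE null mice. Vcan, a proteoglycan of the extracellular matrix, had 65.9 and 84.4 against 5 and 5.3, and Sphk1, a sphingosine kinase, had 62.8 and 114 against 4.9 and 4.8. Neither was parted on the other background, where the differences were -0.09 and 0.98. The other 3 probe sets of Vcan had the opposite sign, with differences from 0.20 to 0.83, and the groups overlapped with the mean of all. A830052D11Rik, Zfp629, Hypk, Plekhs1, Tbx20, Fras1, Evc and Ccdc13 had WT signals from 47.0 to 93.5 and ApoE null signals from 2.6 to 10.3. Of these 8 genes, Evc, a protein of the primary cilium, and Ccdc13 were also lower in double null than in Dscr-1 null mice, with differences of -1.29 and -1.36. Tbx20, Fras1 and Evc missed the rule with the mean of their probe sets. Of the 15 genes with the widest gaps in the lower direction, all but Apoe, Sphk1 and Ccdc13 had both Dscr-1 null arrays below both WT arrays.

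**Figure D3:**
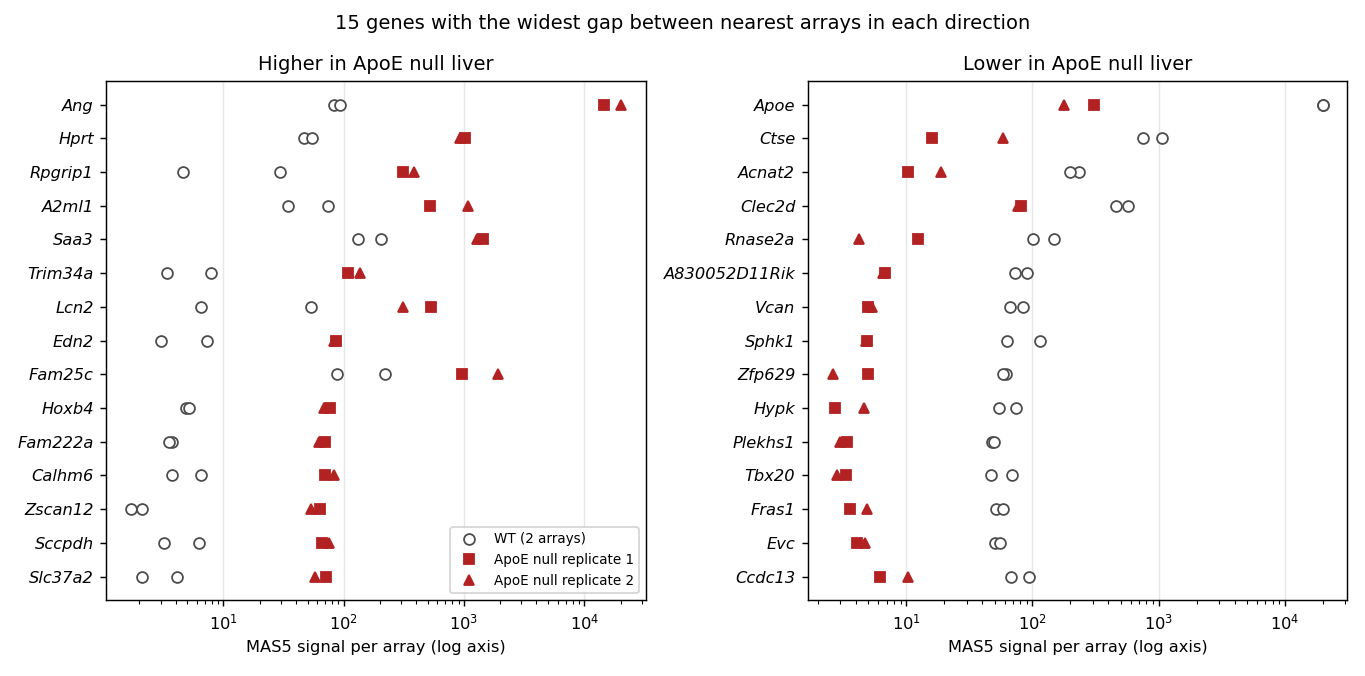
Signal on the 4 arrays (log axes) of the 15 genes with the widest gap between the nearest WT and ApoE null arrays in each direction. Open circles are WT arrays, red squares ApoE null replicate 1 and red triangles replicate 2. Ang and Apoe have the widest gaps, and most other genes are below 100 in one group.

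Other bright parted genes were picked after their values were seen. Socs2, an inhibitor of growth hormone and cytokine signalling, had 71.8 and 66.5 in WT and 339 and 222 in ApoE null mice. Pim1, a kinase induced by cytokines, had 64.9 and 88.2 against 231 and 232. Neither was parted with the mean of its probe sets, and Pim1 also missed the rule with 64 added to the signals in place of 16 (the offset) and with the arrays shifted to the same median. Egr1, an immediate early transcription factor, had 37.4 and 47.8 against 169 and 791, with replicate 2 far above replicate 1. Ly86 (MD-1), the partner of the receptor RP105 on B cells and macrophages, had 138 and 138 in WT and 382 and 306 in ApoE null mice. On the Dscr-1 null background Ly86 had 187 and 169 without and 522 and 386 with loss of ApoE, a gap of 0.98 that missed the rule narrowly. On the WT background it missed the rule with an offset of 64 and with quantile normalization.

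The list of macrophage and Kupffer cell genes had the highest median of the lists with 10 or more measured members. Of 32 measured members, 17 (53.1%) had both ApoE null arrays above both WT arrays, against 17.3% of all genes, and 2 had both below, against 16.7%. The parted members were Lgals3, Lyz1 and Lyz2, which is 3 of 32, against 1.26% of all genes and 0.463% of bright genes parted higher. Lyz1 and Lyz2 are uncertain as separate results. The median difference was 0.67, with 0.74 for replicate 1 and 0.61 for replicate 2, against -0.00 for all genes, and 23 of the 32 were bright. In bulk tissue, more cells of a type cannot be told apart from more RNA per cell. The summed signal of the list was 11457 and 13840 in WT and 24666 and 17407 in ApoE null mice. On the Dscr-1 null background 23 members were above (17.8% of all genes) and 0 below (16.3%), with a median of 1.11. None of the members passed the adjusted threshold.

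Within the list the members differed from each other. Cd5l (AIM), secreted by Kupffer cells, had 1114 and 2019.8 in WT and 5413 and 3208 in ApoE null mice, and Marco, a scavenger receptor, had 64.1 and 4.8 against 138 and 165. Cd68, a lysosomal glycoprotein of all macrophages, had 65.8 and 51.9 against 177 and 127. Mmp12, a macrophage elastase, had 32.2 and 37.9 against 95.5 and 75.9. In each of these 4 the groups did not overlap. Clec4f, a lectin restricted to Kupffer cells in mice, had 563 and 859.8 in WT and 1034 and 650.0 in ApoE null mice, and Adgre1, which encodes F4/80, had 149 and 309 against 198 and 194. For both the groups overlapped, as they did for Csf1r, the receptor for M-CSF, at 1540.3 and 2033 against 3259 and 2027. Cd163, the haemoglobin scavenger receptor, had 73.3 and 62.9 in WT and 5.1 and 32.8 in ApoE null mice and was 1 of the 2 members below.

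MHC class II presentation genes, which are expressed by antigen-presenting cells, had 6 of 10 measured members above and 0 below, against 17.3% and 16.7% of all genes, and 5 of the 10 were bright. The median was 0.54, with 0.53 and 0.51 for the arrays and 1.08 on the Dscr-1 null background. H2-Aa, a class II chain, had 588 and 485 in WT and 947 and 858 in ApoE null mice. Dscr-1 null mice had 567 and 480.4 and double null mice 2426 and 1420.3. Cd74, the invariant chain, had 293 and 246 against 492 and 319 on the WT background. Ifi30, a thiol reductase of the antigen-processing compartment, had 237 and 203 against 329 and 360.2. None of the 10 was parted by 2-fold in ApoE null against WT mice. H2 genes are close paralogs, so H2-Aa, H2-Ab1 (135 and 94.8 in WT and 173 and 215 in ApoE null mice) and H2-Eb1 (181 and 234 against 300.1 and 265) are uncertain as separate results. For class I presentation 6 of 11 members were above and 0 below, with a median of 0.27 and array values of 0.17 and 0.31. Of the 11, 10 were bright, and of bright genes 14.3% were above and 20.6% below.

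**Figure D4:**
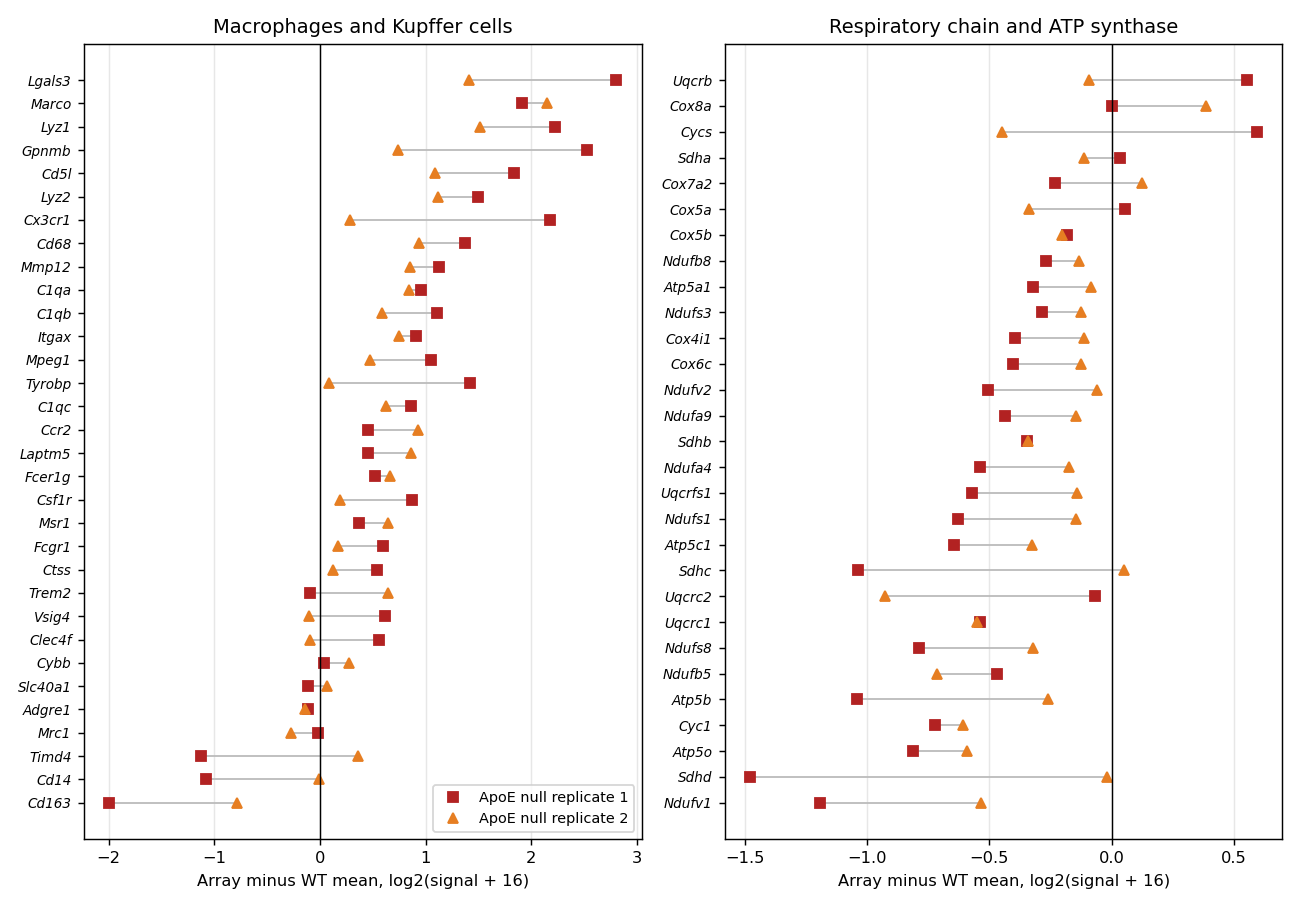
Difference of each ApoE null array from the WT mean on the log2(signal + 16) scale, for the members of 2 lists. Squares are ApoE null replicate 1 and triangles replicate 2. Most macrophage and Kupffer cell genes lie right of 0 on both arrays, with Cd163 farthest left, and most respiratory chain genes lie left of 0, farther on replicate 1.

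The arrays differed over acute phase genes, which hepatocytes produce under cytokines such as IL-6. Of 26 measured members, 7 were above and 2 below, against 17.3% and 16.7% of all genes. Of the 26, 24 were bright, and of bright genes 14.3% were above and 20.6% below. The median was 0.14, with -0.11 on replicate 1 and 0.29 on replicate 2. It was -0.01 when the arrays were shifted to the same median. Saa3 and Lcn2 were the parted members, which is 2 of 26, against 1.26% of all genes and 0.463% of bright genes parted higher. Saa1 and Saa2, which are near-identical and uncertain as separate results, varied widely within WT. Saa1 had 687 and 6559 in WT and 4386 and 8658 in ApoE null mice, and Saa2 had 113 and 717 against 927 and 1205, so neither was parted. Hp (haptoglobin) had 11163 and 15121 against 17791 and 18793. Hamp, the iron hormone hepcidin, had 14394 and 15013 in WT and 3299 and 14106 in ApoE null mice, and the low value came from replicate 1 alone.

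Interferon response genes had 12 of 27 members above (44.4%) and 1 below, against 17.3% and 16.7% of all genes, and 20 were bright. Their median was 0.19, with 0.08 for replicate 1 and 0.65 for replicate 2. Gbp2, a guanylate-binding protein, had 42 and 46.9 in WT and 150.0 and 169.5 in ApoE null mice, and Trim34a, a TRIM family member, had 7.8 and 3.4 against 109 and 136. They were the 2 parted members of 27, against 1.26% of all genes parted higher. Gbp2 missed the rule with an offset of 64 or the mean of its probe sets. Dscr-1 null mice had 96.6 and 102 for Trim34a. Trim30a, picked after its values were seen, had 96.4 and 58.3 in WT, 239 and 291 in ApoE null and 259.8 and 180.4 in Dscr-1 null mice, and it missed the rule with that offset, with the shifted median and with the mean of its probe sets. Genes of this Trim cluster are close paralogs and share the uncertainty named for Lyz1. Oas1a, Oas2 and Ifit3, which restrict viral RNA, were above without being parted, with differences of 0.82, 1.10 and 0.98. Irf7, a regulator of type I interferon, had 239 and 392 against 229 and 379, which overlapped.

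Promoters of Gbp2 (chr3:142620413-142620712, plus strand) and Trim34a (chr7:104244207-104244506, plus strand) are shown as the parted interferon genes, with the same kind of window and build, and the motif in capitals.
Gbp2: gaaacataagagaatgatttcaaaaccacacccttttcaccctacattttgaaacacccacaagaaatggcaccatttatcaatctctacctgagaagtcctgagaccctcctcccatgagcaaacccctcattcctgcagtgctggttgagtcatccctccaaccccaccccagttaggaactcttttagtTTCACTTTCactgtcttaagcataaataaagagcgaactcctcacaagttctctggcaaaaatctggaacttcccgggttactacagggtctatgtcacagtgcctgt
Trim34a: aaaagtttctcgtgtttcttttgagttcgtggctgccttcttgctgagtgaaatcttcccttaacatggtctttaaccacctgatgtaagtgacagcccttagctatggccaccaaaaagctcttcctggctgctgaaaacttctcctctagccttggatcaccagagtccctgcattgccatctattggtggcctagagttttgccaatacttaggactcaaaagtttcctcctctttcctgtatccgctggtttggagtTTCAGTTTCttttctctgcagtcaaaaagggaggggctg
GAAANNGAA was found in 20 of the 146 genes parted higher that had a promoter entry (13.7%), in 10 of 83 parted lower (12%) and in 8.65% of 11911 tested genes. Those parted lower included Apoe, Clec2d, Rnase2a and Sphk1. GAGGAAGT, a motif of the myeloid factor PU.1, was found in 7 of 146 (4.79%) and 6 of 83 (7.23%), against 3.47% of tested genes, and TTGCNNCAA, of the C/EBP type, in 6 of 146 (4.11%) and 0 of 83, against 1.98%.

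Inflammatory cytokines, chemokines and mediators were mostly dim, with 9 of 37 members bright. Of the 37, 12 were above and 2 below, against 17.3% and 16.7% of all genes. The median was 0.34, with array values of 0.43 and 0.28. Vcam1 and Tnfaip3, an inhibitor of NF-kappaB signalling, were parted, which is 2 of 37, against 1.26% of all genes parted higher. Tnfaip3 had 33.1 and 12.5 in WT and 103 and 95.1 in ApoE null mice. The other probe set of Tnfaip3 overlapped with a difference of 0.29, and the gene missed the rule with an offset of 64, with the shifted median and with the mean of its probe sets. Cxcl1, a neutrophil chemokine, had 263 and 383 against 511 and 1069, and Cxcl9, a chemokine for T cells, had 195 and 113 against 209 and 605, where replicate 2 was far above the other. Tnf had 27.4 and 47.9 in WT and 49.8 and 43.6 in ApoE null mice, and Ccl2 had 45.3 and 10.9 against 50.2 and 3.5. Both overlapped, as did Icam1 at 62.5 and 87 against 115 and 72.1. Il18 was 1 of the 2 members below, at 508 and 439 against 192 and 301. Il1b had 28.9 and 30.5 in WT and 54.7 and 41.3 in ApoE null mice, with a difference of 0.48.

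Markers of other cell types gave the following values, against 17.3% above and 16.7% below among all genes. Neutrophil genes had 2 of 10 above and 0 below, with summed signals of 283 and 354 in WT and 604 and 353 in ApoE null mice. T and NK cell genes had 2 of 10 above and 0 below (summed signals 174 and 312 in WT, 419 and 372 in ApoE null mice), and B cell genes 2 of 8 above and 1 below. The latter was Ighm, the heavy chain of IgM, at 119.8 and 374 in WT and 11.6 and 28.1 in ApoE null mice. Its 9 probe sets disagreed, since another had 20.8 and 28.2 in WT and 177 and 80.2 in ApoE null mice, and the groups overlapped with their mean. Endothelial genes had 2 of 15 above and 6 below, with a median of -0.25 and array values of -0.25 and -0.33. Stellate cell and matrix genes had 3 of 21 above and 2 below, with a median of 0.02 and array values of 0.19 and 0.03. Hepatocyte genes had 1 of 16 above and 2 below, with a median of -0.12 and array values of -0.11 and -0.01. Of these 16, 15 were bright, and of bright genes 14.3% were above and 20.6% below. The part of cell composition in the results above was not tested.

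The study asked how loss of ApoE and DSCR-1 affects cholesterol metabolism. Cholesterol synthesis genes and other targets of SREBP2 gave opposite medians on the arrays, -0.11 on replicate 1 and 0.73 on replicate 2, with 0.22 for the group. Of 21 members, 6 were above and 1 below, against 17.3% and 16.7% of all genes, and 0 were parted. Of the 21, 17 were bright, and of bright genes 14.3% were above and 20.6% below. Idi1, an isomerase of the isoprenoid steps, had 157 and 142 in WT and 202 and 628 in ApoE null mice. Sqle (squalene epoxidase) had 49.8 and 37.3 against 57.4 and 176, and Cyp51 (lanosterol demethylase) 101 and 109 against 96.1 and 316. In all 3 the high value was replicate 2. Hmgcs1, the cytosolic HMG-CoA synthase, had 715 and 1082 against 572 and 1461, which overlapped. Its other probe sets gave differences from -1.23 to 0.54, and not all of them overlapped. Insig1, a retention factor for SREBPs, was the member below, at 1019.6 and 1078 against 593 and 958. On the Dscr-1 null background the median was -0.05.

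Genes of cholesterol efflux and targets of LXR, a sterol-activated nuclear receptor, did not share a direction. Abcg5 and Abcg8 form the transporter that secretes cholesterol into bile. Abcg5 had 2782 and 2028 in WT and 1264 and 1368 in ApoE null mice, and Abcg8 947 and 893 against 544 and 705. Both lay below WT, with differences of -0.85 and -0.56. Pltp, the phospholipid transfer protein of plasma, lay above, at 457 and 333 in WT and 1043 and 755 in ApoE null mice, with 493 and 413 and 2121 and 1538 on the other background. Abcg1, an efflux transporter of macrophages, also lay above, at 171 and 96 against 242 and 201. Abca1 had 3777 and 2851 against 3587 and 3309.7, which overlapped, and Srebf1 was below at 6359 and 4097 against 2131 and 3405. Npc2, which carries cholesterol out of lysosomes, had 1358 and 1544 against 3017 and 1595. None was called by limma in the main test, although Pltp had an adjusted p of 0.0294 with a trend and robust moderation.

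For lipoprotein receptors and uptake, 5 of 14 members were above and 0 below, against 17.3% and 16.7% of all genes. Of the 14, 12 were bright, and of bright genes 14.3% were above and 20.6% below. The median was -0.03, and the arrays differed in sign, with -0.14 and 0.21. Lpl was the parted member, which is 1 of 14, against 1.26% of all genes parted higher. Scarb1, the receptor for HDL, had 837 and 827 in WT and 593 and 831 in ApoE null mice, and Lrp1, a receptor for remnants, had 1123 and 992 against 844 and 1113. Cd36, a fatty acid and scavenger receptor, had 219.7 and 57.5 against 564 and 152. All 3 overlapped. Several genes of these pathways were not analysed here.

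Among apolipoproteins, Apoe was the only parted gene of 15. Apoa1, the main protein of HDL, had 27663 and 27581 in WT and 32461 and 34258 in ApoE null mice, and its difference of 0.27 became -0.15 with quantile normalization. Apob, the structural protein of VLDL, had 15476 and 7484 against 10318 and 7250.3. Apoc1, Apoc4 and Apoc2 lie next to Apoe in the gene order. Apoc1 had 15302 and 14995 against 29008 and 16163, Apoc4 had 7798 and 9715 against 9286 and 6336, and Apoc2 had 2017 and 2039 against 2228 and 3157. Of the 20 tested genes nearest to Apoe, 10 on each side, 10 were above and 3 below, against 17.3% and 16.7% of all genes. None was parted. The same order held on both backgrounds for 5 of the 20 (25%), against 7.01% of all genes, and for 20% of the nearest 50 and 12% of the nearest 100 and 200 genes. Relb, an NF-kappaB subunit, was 1 of these neighbours, at 4.7 and 5 in WT and 29.5 and 49.6 in ApoE null mice. Igsf23 had 49 and 8 against 80.0 and 184, and Tomm40, a subunit of the mitochondrial import channel, 259.5 and 235 against 227 and 215.

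Bile acid synthesis and transport had 2 of 21 members above and 9 below. The median was -0.25, with -0.47 and -0.17 for the arrays, and all 21 members were bright. Among all bright genes 14.3% were above and 20.6% below. Cyp7a1, which catalyses the limiting step from cholesterol to bile acids, had 4305 and 1629 in WT and 1324 and 1199 in ApoE null mice. Its WT arrays differed by more than the nearest arrays of the groups did. Slc27a5, a bile acid CoA ligase, had 6646 and 6453 against 3897 and 5475, and 5359 and 5500.2 and 3418 and 3489.9 on the other background. It lay below on both, with differences of -0.50 and -0.65. Slco1a1, an organic anion importer, had 5023 and 5049 against 3145 and 3916, and Klb, the co-receptor for FGF15, 235 and 323 against 64.7 and 223. Cyp8b1, the sterol 12-alpha-hydroxylase, had 547 and 704 against 936 and 513, which overlapped.

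**Figure D5:**
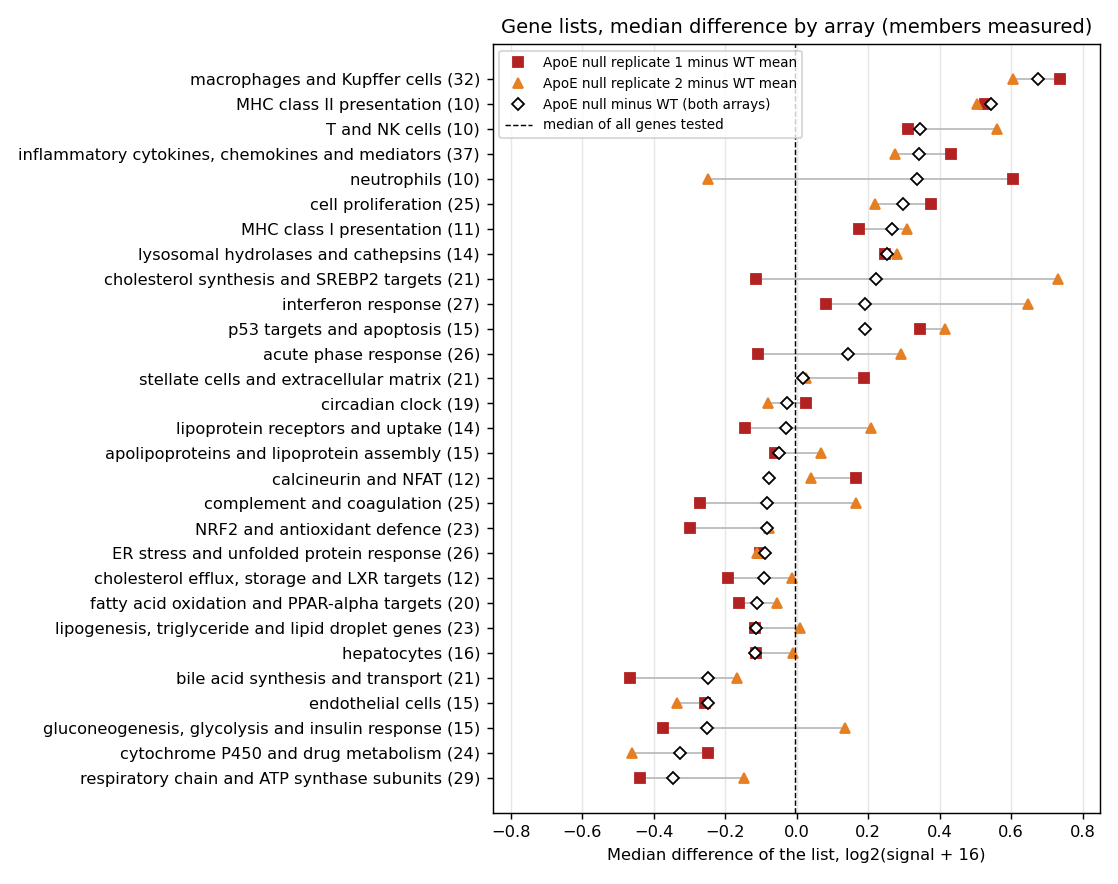
Median difference of each gene list with 10 or more measured members (number in brackets) on the log2(signal + 16) scale. Squares are ApoE null replicate 1, triangles replicate 2 and diamonds both arrays against WT, and the dashed line is the median of all genes. Macrophage and Kupffer cell genes are highest at 0.67 and respiratory chain genes lowest at -0.35, and the arrays lie farthest apart for neutrophil, cholesterol synthesis and interferon genes.

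Genes of fatty acid metabolism lay on both sides of WT. Of 20 genes of fatty acid oxidation and PPAR-alpha targets, 4 were above and 3 below, with a median of -0.11 and array values of -0.16 and -0.06. Of 23 lipogenesis and lipid droplet genes 4 were above and 6 below, with a median of -0.11 and array values of -0.12 and 0.01. Among all genes 17.3% were above and 16.7% below. Of the 20 genes 18 were bright and of the 23 genes 20, and of bright genes 14.3% were above and 20.6% below. Ppara, the nuclear receptor itself, had 1084 and 602 in WT and 1613 and 1393 in ApoE null mice, a difference of 0.88, but its other 2 probe sets were about as bright and overlapped, with differences of 0.02 and 0.21. Cpt1a, which brings fatty acids into mitochondria, had 1877 and 1336 against 2238 and 2165, and Vnn1, a PPAR-alpha target, 569 and 502 against 1588 and 737. Plin2, a coat protein of lipid droplets, had 3420.2 and 3828 against 5621 and 6819. In double null against Dscr-1 null mice Ppara, Vnn1 and Plin2 lay below instead, with differences of -0.14, -0.89 and -0.44. The interaction did not pass the threshold for any gene named here, the lowest adjusted p being 0.461 by limma. Cyp4a14 had 144 and 2381 in WT and 280.1 and 538 in ApoE null mice.

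Fasn (fatty acid synthase) had 4976 and 3659 in WT and 1583 and 2407 in ApoE null mice, and Dgat2, which completes triglyceride synthesis, had 4757 and 4205 against 2845 and 2967. Both were below, with differences of -1.12 and -0.62. Scd1, the stearoyl-CoA desaturase, had 27403 and 29375 against 42681 and 30153, and its difference turned from 0.34 to -0.11 with quantile normalization. In glucose metabolism, Pck1, which commits substrate to gluconeogenesis, had 2179 and 1363 against 3625 and 3218, and Ppargc1a, a coactivator of that programme, had 39.8 and 28 against 122 and 71.8. Both were above, while G6pc, the last enzyme of the pathway, had 2075 and 1064 against 984 and 1100.4, which overlapped. Of the 4 other probe sets of Ppargc1a 3 overlapped, and the mean of all gave a difference of 0.39. A dimmer probe set of Pck1 overlapped with a difference of -0.26, and another lay above by a gap of only 0.0015. Of 15 members of the glucose metabolism list 5 were above and 4 below, against 17.3% and 16.7% of all genes. Of the 15, 13 were bright, and of bright genes 14.3% were above and 20.6% below. The median of the list was -0.25, and the arrays differed in sign, with -0.37 and 0.14.

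Subunits of the respiratory chain and ATP synthase lay lower. Of 29 members, 0 were above and 16 (55.2%) below, against 14.3% and 20.6% of bright genes, and all 29 were bright. The median was -0.35. Replicate 1 gave -0.44 and replicate 2 -0.15, and genes of like brightness (1000 to 10000) had -0.22 and -0.03. Cyc1 (cytochrome c1) had 3747 and 4225 in WT and 2405 and 2602 in ApoE null mice, and Ndufv1, a core subunit of complex I, 1309 and 1256 against 552 and 881. Atp5o had 1761 and 2108 against 1091 and 1271, and Uqcrc1 had 1727 and 2062 against 1295 and 1283. All were below with differences from -0.86 to -0.54, whereas Cox4i1 overlapped at 5172 and 6156 against 4280.4 and 5210.1. On the Dscr-1 null background the median was -0.09, with 3 members above and 9 below. The part of replicate 1 and its brightness shift in this difference was not tested.

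Cytochrome P450 and drug metabolism genes had 0 of 24 members above and 13 (54.2%) below, against 17.3% and 16.7% of all genes. Of the 24, 21 were bright, and of bright genes 14.3% were above and 20.6% below. The median was -0.33, with array values of -0.25 and -0.46. Here replicate 2 was the lower. Genes with a mean signal from 1000 to 10000 had -0.22 and -0.03. Ces1d, a carboxylesterase, had 3584 and 3610.3 in WT and 2036 and 2044 in ApoE null mice, a difference of -0.81 ± 0.34, and 2216 and 2550.0 and 1634 and 1535 on the other background. The other 2 probe sets of Ces1d overlapped, with differences of -0.07 and 0.42, as did the mean of all. Cyp1a2 had 8397 and 12862 against 7251 and 6757, and Cyp2c29 10093 and 13082 against 8972 and 4220.2, both below. Cyp2c37 had 4929.5 and 3519 against 3521 and 990.4, which overlapped by the value of replicate 1. Of the most abundant members, Cyp3a11 had 21195 and 24484 against 37744 and 23061 and Cyp2e1 had 23229 and 23412 against 33235 and 18103, with overlap in both. The high value in both was replicate 1. On replicate 2 Cyp2e1 lay below both WT arrays and Cyp3a11 between them. Genes with a mean signal of at least 10000 had medians of 0.15 on replicate 1 and -0.01 on replicate 2. The part of that shift in these values was not tested.

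Of 23 antioxidant genes, including targets of NRF2, 4 were above and 5 below, against 17.3% and 16.7% of all genes. Of the 23, 21 were bright, and of bright genes 14.3% were above and 20.6% below. Mt2, a metallothionein induced by metals and glucocorticoids, was the parted member, which is 1 of 23, against 1.26% of all genes parted higher. Its signal was 73.4 and 84 in WT and 386 and 231 in ApoE null mice. Mt1 had 437 and 172 against 767 and 738, and Dscr-1 null mice ranged from 42 to 223 for Mt2, so this gene varied widely within that genotype. Hmox1, the haem oxygenase that macrophages and hepatocytes induce under oxidative stress, had 87.9 and 68.7 against 211 and 158, with a difference of 1.08 ± 0.49. Genes of lysosomal hydrolases had 5 of 14 above and 2 below, with a median of 0.25 and array values of 0.25 and 0.28. Male-biased liver genes had 3 of 7 above and 0 below. Both counts stand against 17.3% above and 16.7% below among all genes. Eif2s3y, on the Y chromosome, was present on all 4 arrays at 338 and 409 against 198 and 213.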

How the data were processed

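RNA of whole liver was hybridized to Affymetrix Mouse Genome 430 2.0 arrays, and the authors computed one intensity per probe set with the MAS5 algorithm and scaled the average of each array to 100. The deposited intensity values were used as given. Transcriptome Analysis Console is a tool named in the submitters' processing notes, and the genome build was not given in the sources used here. Of 45101 probe sets, 64 were controls. Of the other 45037, 34945 had 1 gene in the platform annotation, 932 several and 9160 none, and probe sets above their array median on fewer than 2 liver arrays were left out. The probe set with the highest mean stood for its gene, which gave 14855 genes from 32005 probe sets. Intensities were turned into log2 values after adding 16, since the deposited liver values are on a linear scale. All 8 liver arrays were fitted with limma 3.58.1 in R 4.3.3 (lmFit and eBayes). The Benjamini-Hochberg adjustment ran over all 32005 kept probe sets, before a probe set was chosen per gene. The number of arrays limits the precision. The scripts were tested on simulated data with 200 changed probe sets. Members of the comparison and the gene lists were chosen with earlier results of these data known. The genes named are Apoe and Rcan1, the 15 widest gaps in each direction, members marked as key and up to 8 others by lowest p in each list, cell type markers, and neighbours of named genes, of which the text prints a part. Others are said to have been picked after their values were seen. Alternatives were another offset, filter, scaling, probe set rule, moderation, set of arrays and test, a replicate block, and leaving out each array. Promoters came from RefSeq (GRCm38.p6). The aortic arrays were not used here.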

Additional observations from a re-analysis of the deposited data

How the results depend on the processing

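The count of genes past the adjusted threshold depended on the settings. The main fit gave 1 higher and 1 lower. There were 0 higher and 0 lower with an offset of 1, 9 and 4 with an offset of 64, 6 and 3 among genes with a mean signal of at least 100, 27 and 13 with a trend and robust moderation, and 0 and 0 with the 4 arrays alone. The mean of all probe sets gave 0 higher and left Apoe lower. Of 14855 genes, the methods' t-test gave 439 higher and 399 lower unadjusted and 0 after Benjamini-Hochberg. Leaving out each array gave 0 to 1 in each direction. Apoe was lost without WT replicate 1, WT replicate 2 or ApoE null replicate 2 (adjusted p 0.0898 to 0.202) and was called without ApoE null replicate 1 (0.0436), and Ang was lost without any of these 4 (0.182 to 0.271). Genes parted higher and lower numbered 308 and 190 with an offset of 1, 20 and 7 with 64, 29 and 8 with a mean of at least 100, and 1979 and 1193 by the ratio of mean signals. Leaving out an array, which makes the rule easier to pass, gave 433 to 1061 higher and 330 to 730 lower. Without ApoE null replicate 1 the counts were 433 higher and 437 lower, so the higher share was 49.8% and the excess of higher genes was not seen. Quantile normalization gave 164 and 128, and shifting each array to the same median gave 147 and 138, which took the higher share from 64% to 56.2% and 51.6% and the median of all genes to -0.16. Of the 292 parted genes, 259 kept their direction under the former and 246 under the latter. Cfp, Lyz1, Lyz2 and Vcam1 missed the rule with an offset of 64, Lyz1 and Lyz2 with the shifted median, and Lyz1, Vcam1 and Ppp5c with the mean of probe sets. Of 49 parted genes looked up by name, 49 kept the rule with an offset of 1, 22 with 64, 48 with quantile normalization, 44 with the shifted median and 34 with the mean of probe sets. Of 44 looked-up genes whose groups did not overlap and that had more probe sets, 29 had another that overlapped or had the opposite order, and 16 had another with the opposite sign.

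Replicate numbers did not pair the arrays, since deviations of same-numbered arrays correlated by -0.00155 to 0.0293. With the replicate block 1 gene was higher and 1 lower, with 880 genes at an unadjusted p under 0.05 against 853.

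Differences of some named genes changed sign, and the cause was not tested. With each array shifted to the same median, Abca1 had -0.084, Hmgcs1 -0.097 and Cyp2e1 -0.081. With quantile normalization Cyp2e1 had -0.20, Scd1 -0.11, Apoa1 -0.15 and Ttr -0.045. With the mean of probe sets Abca1 had -0.16, Hmgcs1 -0.019 and Eif2s3y 0.16. Leaving out each array gave ranges that crossed 0 for Abca1 (-0.13 to 0.27), Adgre1 (-0.62 to 0.36), Apob (-0.84 to 0.21), Apoc4 (-0.46 to 0.093), Ccl2 (-1.06 to 0.71), Clec4f (-0.10 to 0.56), Cyp2e1 (-0.37 to 0.51), Cyp4a14 (-2.57 to 1.34), Cyp51 (-0.11 to 1.45), Cyp8b1 (-0.27 to 0.58), Hmgcs1 (-0.61 to 0.72), Icam1 (-0.029 to 0.55), Irf7 (-0.40 to 0.29), Lrp1 (-0.32 to 0.076), Saa1 (-0.090 to 3.14), Tnf (-0.029 to 0.53) and Ttr (-0.012 to 0.86).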

Other observations

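Cell proliferation genes had 7 of 25 measured members with both ApoE null arrays above both WT arrays and 1 below. Of all genes 17.3% were above and 16.7% below. The median difference of the list was 0.30, with array values of 0.38 and 0.22, but only 4 of the 25 were bright. Over genes with a mean signal of at least 100 the median of the list was -0.26. Of 15 p53 targets and apoptosis genes, 6 were above and 1 below. Their median was 0.19, with array values of 0.35 and 0.42, and became -0.06 with the mean of all probe sets. Circadian clock genes had 4 of 19 above and 4 below. Of 26 genes of the unfolded protein response, 2 were above and 5 below.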
